A study of Mus musculus with 2 samples.

Results

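Long reads of mouse calf muscle held 2200 introns that were absent from the annotation. None shared 1 end with an annotated intron whose other end was 12 nt away or less. New ends could still lie that close to another annotated splice site. The 2200 introns lay in 1298 genes. The starting point was 155864 introns in the transcript models that TALON, the annotation program whose labels the files carry, classed as new combinations of known splice sites (NIC) or as using a new splice site (NNC). Of those introns 42761 were in no model of the Known class, and 2958 of these had at least 1 read in each library and 5 in sum. Of the 2958, 758 shared 1 end with a Known intron whose other end was 12 nt away or less, and were left out. The members were thus chosen by their read counts, and those counts are given below as a description.

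The tissue was gastrocnemius, the large calf muscle, from male B6CASTF1/J mice aged 10 days, which carry 1 genome from C57BL/6J and 1 from CAST/EiJ. Total RNA, 2 µg per library, was sequenced as long reads in 2 libraries. Both belong to 1 group with no treatment and no control, so the design allows a comparison of replicate 1 with replicate 2 and none between conditions. The labels number the 2 biosamples separately under 1 donor identifier, so whether they came from separate animals is open, and differences between them may be technical. The deposited files do not split reads by parental genome, and their coordinates are those of mm10, a C57BL/6J genome.

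The libraries listed 1172413 and 957529 reads. All 8 muscle fibre markers had reads in both libraries, at 255013 and 243075 summed CPM, the reads scaled to 1000000 mouse reads per library. The 4 fibroblast markers summed to 18609 and 10926 CPM and the 3 Schwann cell markers to 909.7 and 685.9 CPM. Of the immune markers, Ptprc had 1 and 0 reads and Lyz2 36 and 33. Of the satellite cell markers, Pax7 had 2 and 0 reads and Myf5 1 and 4.

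An intron is the stretch that the spliceosome removes from a transcript. It begins at a donor site, where most introns read GT in the DNA, and ends at an acceptor site, where most read AG. Leaving out an exon, using a new exon or moving a splice site changes the protein or the untranslated ends of the messenger RNA, and skeletal muscle is known for extensive exon choice in its contractile and calcium-handling genes. Very short exons are a known feature of muscle and nerve transcripts.

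The members fell into 3 classes. A new end, meaning a donor or acceptor that no Known intron uses within or beside a Known exon, was found in 935. A new exon, overlapping no Known exon, was joined by 769. Skipping, in which both ends were known but had not been joined, accounted for 496. Within these, 427 had a new donor, 329 a new acceptor and 179 both, while 449 bordered a new internal exon, 263 a new first exon and 57 a new last exon. Of the skipping introns 437 ran over Known exons, 40 had no Known exon inside and 19 joined sites of 2 genes.

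Sequence was readable where an intron end lay inside an annotated GENCODE M21 transcript or a RefSeq promoter window, both on GRCm38. The results that follow turn on 3 sets. The first is short annotated exons that members ran over. The exon is in capitals, with the neighbouring exon bases of a GENCODE transcript in lower case, 5′ to 3′ on the gene's strand.
Atp2a1, chr7:126462500-126462517, minus strand: ccaatgAGCTCCCTGCTGAGGAAGgcaagt
Tnni2, chr7:142442691-142442697, plus strand: gggagaTGAGGAGaagcgc
Tnni1, chr1:135803282-135803285, plus strand: ggaagtTGAGaggaaa
Hacd1, chr2:14044948-14044966, minus strand: tgagGTAGTCCATTGTCTGATCGgaat
Hnrnpk, chr13:58393853-58393868, minus strand: ccacagGGTGGTTCTGGATATGactatt
Capn2, chr1:182482536-182482547, minus strand: tatgagGTTCCAGAGGAGctaaca
Col6a1, chr10:76712865-76712873, minus strand: tgtgctCCTGCTGTGagtgca

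The second set shows ends with the usual dinucleotides, which are in capitals. Donors have 12 exon bases before the intron, and acceptors have 16 intron bases before the exon.
Myh4 donor of the new first exon, intron chr11:67237834-67238030, plus strand: aaacccttaaagGTaggtatgtgt
Hnrnpk donor, intron chr13:58393775-58394059, minus strand: agtatcaataatGTtaataatgta
Gpd2 donor, intron chr2:57367474-57369462, plus strand: ttgtggaggattGTgagtctgacc
Gpd2 acceptor, same intron: ctctctctctttctAGttagatcaagat

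The third set shows introns whose 2 ends share a run of bases, again with the dinucleotides in capitals.
Synpo2 donor, intron chr3:123111553-123111621, minus strand: acaaagtaacatGTggctaaggca
Synpo2 acceptor, same intron: ggacacaaagtaacATgtggctattgtt
Casq1 donor, intron chr1:172219657-172219837, minus strand: caggacccagcaGTgtcctctgtc
Casq1 acceptor, same intron: atgggggccagagcAGtgtccgagctgc
Trub2 donor, intron chr2:29776220-29776374, minus strand: ggtgtctgcagtGTgaacactaac
Trub2 acceptor, same intron: ttgttggtgtctgcAGtgtgaacactaa

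Members held 129398 reads in replicate 1 and 82994 in replicate 2, which is 10.8 and 10.0 per 1000 intron-spanning counts. One gene supplied most of them. Atp2a1, which encodes SERCA1 and returns calcium to the store of fast fibres, held 69.3% and 68.8% of member reads, and without it the level was 3.31 and 3.12 per 1000. The median member had 8 reads in sum, 405 had 20 or more and 70 had 100 or more. At the lower limit, 449 members had exactly 5 reads, and 657 introns with 4 reads fell outside. At the distance limit, 38 introns had their other end 13 to 15 nt from that of a Known intron and stayed in, against 42 at 10 to 12 nt that were left out.

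**Figure D1:**
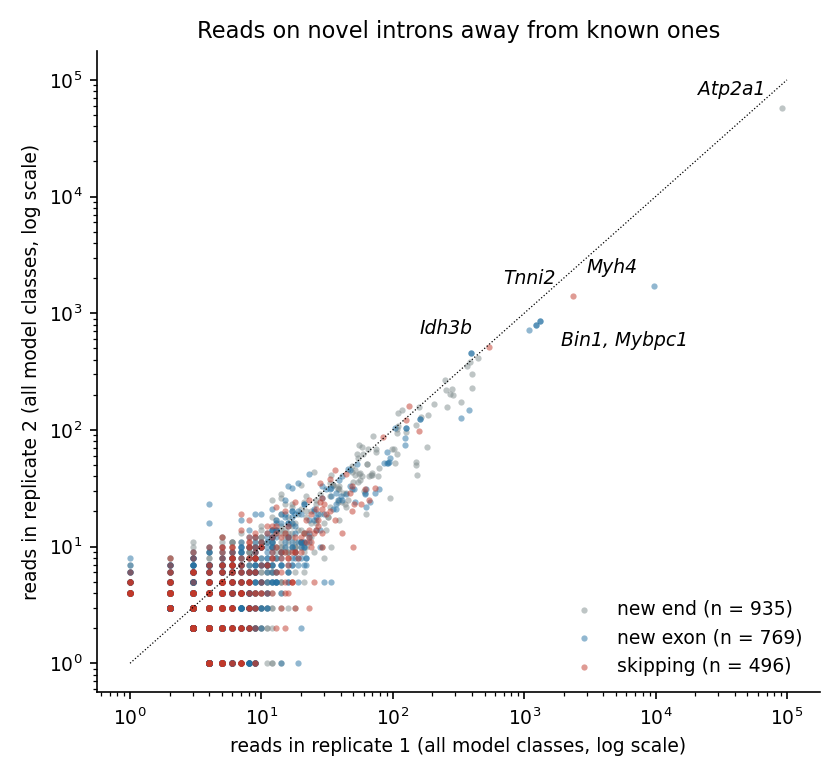
Reads on each of the 2200 members in replicate 1 (x) and replicate 2 (y), both on log scales and over all model classes, with 1 point per intron coloured by class and the dotted line marking equal reads. The Atp2a1 intron stands alone at the upper right, and most members lie at 20 reads or fewer.

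The label a model received differed between libraries. NIC models carried 72.4% of member reads in replicate 1 and 26.0% in replicate 2. These percentages are weighted by reads, and 2 introns held much of the gap. The Atp2a1 intron with most reads had 70470 of 88305 on NIC models in replicate 1 and 11487 of 56116 in replicate 2. The Myh4 intron with most reads had 9482 of 9652 and 10 of 1721. The gap therefore does not describe the typical member. A model with a new intron could also be listed as an incomplete match (ISM) of another unannotated model, and in 96 members the reads over all classes were more than 1.5 times those on NIC and NNC models. The widest case named here was Tnni2, fast skeletal troponin I, whose skipping intron had 28 and 1115 reads on NIC and NNC models but 2342 and 1394 over all classes. Pdlim7, a PDZ-LIM protein of the actin cytoskeleton, had 384 and 7 reads by the rule and 399 and 303 over all classes. Shares below therefore use reads over all classes.

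The share of an intron was its reads divided by the reads of all introns that use its donor or its acceptor. Where both ends were new, no Known intron was among these. For a skipping intron, a read that keeps the exon counts once at each end. Skipping shares can therefore be lower than the part of reads that skip, and their intervals and tests count such reads repeatedly. The Pdlim3 skipping intron had 1028 and 662 counts in this divisor, beside 571 and 375 reads of the gene. The share could be measured in 1458 members with 20 or more competing counts in each library. The median of the mean share was 4.41%, and 787 of the 1458 were under 5%. In 99 members, from 75 genes, the mean share was 50% or more, and in 41 it was 90% or more. Class medians were 4.61% for new ends (618 members), 5.44% for new exons (432) and 3.34% for skipping (408). The skipping median is not on the same footing as the others, since reads that keep the exon count at both ends. Thus over the 1458 measured members, a share under 5% of the counts at the splice site was more frequent than one of 50% or more.

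Shares differed by few points between the 2 libraries, and low shares leave little room for a difference in points. The median absolute difference was 1.35 percentage points, 9 in 10 members differed by less than 7.97 points, and 94 differed by 10 points or more. By two-sided Fisher's exact tests with Benjamini-Hochberg adjustment over all 47221 introns tested, 7 introns (0.0148%) passed an adjusted p of 0.05 with a difference of 10 points. None of the 7 was among the 1458 members. For at least 787 of the 1458 the mean share was too low for a difference of 10 points to occur. The lack of calls therefore says nothing about these members. At an unadjusted p under 0.05 there were 56 members. Both members with an adjusted p under 0.05 were in Atp2a1 and differed by under 1 point. The test compares 2 libraries, and counts of PCR-amplified long reads are not independent molecules, so intervals and tests cover counting error only.

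The member with most reads ran over a very short annotated exon. In all, 108 members, from 81 genes, ran over Known internal exons of 30 nt or less in sum, which is 4.91% (95% Wilson interval 4.08% to 5.89%) of members against 0.296% of the 102057 Known introns with as many reads. They held 71.7% of member reads, or 10.2% without Atp2a1. Any Known internal exon lay inside 697 members (31.7%) and inside 4.91% of those Known introns. A Known intron runs over a Known exon only where the annotation lists both forms, so the definition of members favours such introns. Several members also ran over the same exon, as in Atp2a1, so the interval treats related introns as separate. Among members with a mean share of 50% or more, 18 of 99 ran over such short exons, against 52 of the 1359 with a lower share.

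The leading example was an Atp2a1 intron, chr7:126462188-126462778, with 88305 and 56116 reads. It ran over the 18-nt exon printed above and began 26 nt past the annotated donor of the exon before it. Over all classes it had 91065 of 91769 competing counts in replicate 1, a share of 99.2%, and 57565 of 58171 in replicate 2, a share of 98.96% (98.87% to 99.04%). An intron from the annotated donor straight to the same acceptor, which skips the 18-nt exon and adds nothing, had 48 and 32 reads. Thus in both libraries nearly every read at this site was modelled without the short exon and with a longer exon before it.

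Hacd1, an enzyme of very-long-chain fatty acid synthesis that is abundant in muscle, had a new donor 27 nt into the intron and ran over a 19-nt exon. It had 386 and 378 reads and shares of 99.7% and 100%. Hnrnpk, an RNA-binding protein that acts in splicing, had a new donor 16 nt past an annotated one and ran over an exon of 16 nt. Its reads were 319 and 402 and its shares 96.1% (94.0% to 97.5%) and 95.8% (93.5% to 97.3%). Skipping of that exon from the annotated donor had 9 and 9 Hnrnpk reads.

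The same arrangement was found in other genes. Col6a1, a collagen VI chain made by muscle fibroblasts, had 319 and 165 reads on an intron over a 9-nt exon, with the exon before it 4 nt longer and shares of 99.5% and 99.6%. The calpains Capn2 and Capn1, calcium-activated proteases, each ran over a 12-nt exon, with the preceding exon lengthened by 17 nt and 11 nt and shares of 100% in both libraries. Car14, a membrane carbonic anhydrase, had a new acceptor 22 nt before the annotated one and ran over a 21-nt exon, with shares of 97.3% and 97.2%. Tnnt1, slow skeletal troponin T, ran over 14 nt with the preceding exon 12 nt longer, with shares of 100% and 98.1%. Pitpnb, a phosphatidylinositol transfer protein, ran over 8 nt with the preceding exon 8 nt longer.

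Of the 108 introns, 76 had 1 new end, and in 70 of these the exon at the new end was longer than annotated. The lengthening was often close to the length of the exon that was run over. That exon was 30 nt or less by choice, and how close the 2 lengths would lie by chance was not tested. The median lengthening was 16 nt and the median short exon 20 nt, and the 2 lengths were within 10 nt in 58 of the 70 and equal in 5. Others differed more, as with 4 nt added beside 21 nt in Mxra8 and beside 18 nt in Atp2a2. The lengthening was 30 nt or less in 68 of 70, against 79 of the 338 other members that had 1 new end and a longer exon. The median lengthening of these 338 was 111 nt. The distance rule for members left out introns with a small shift from a Known intron that shared an end. Introns over a short exon could stay in with small shifts where no Known intron ran over that exon, as with 4 nt in Mxra8. The contrast with the 338 may thus come partly from that rule, and how far was not tested. The files hold models and counts but no read bases, so whether the added bases of a read match the intron or the short exon was not tested. How the alignment step treats exons of this size was not tested either.

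**Figure D2:**
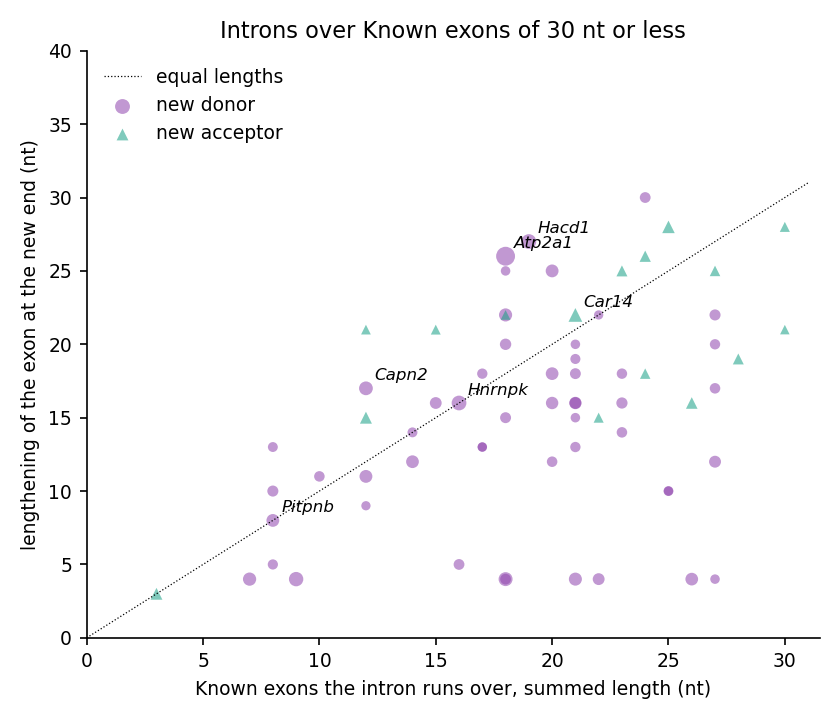
Length added to the exon at the new end (y, nt) against the summed length of the Known exons the intron runs over (x, nt), for introns over exons of 30 nt or less with 1 new end and a longer exon. Circles are new donors, triangles new acceptors, symbols are larger with more reads, the dotted line marks equal lengths, 68 introns are drawn and 2 lie above the axis.

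Another 25 of the 108 were plain skipping. Tnni2 skipped the 7-nt exon printed above, with shares of 95.2% (94.3% to 96.0%) and 95.5% (94.3% to 96.4%). A Tnni2 intron from 4 nt further on to the same acceptor took 4.35% and 4.25%. Tnni1, slow skeletal troponin I, skipped a 4-nt exon in 132 of 132 and 160 of 160 competing counts, so no read was modelled with the annotated introns on either side of it. These genes encode the inhibitory subunits of the thin filament, and neither length is a multiple of 3.

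Sept7, a septin of the cytoskeleton, skipped 2 exons of 10 nt in sum with 125 and 121 reads and shares of 95.5% and 96.0%. Ksr1, a scaffold of the MAP kinase pathway, skipped 5 nt with 43 and 19 reads, and Pitpnc1, a lipid transfer protein, skipped 8 nt with 33 and 19. Ryr1, the calcium release channel of muscle, skipped 2 exons of 17 nt in sum with 15 and 3 reads on NIC and NNC models. Over all classes it had 50 of 58 and 10 of 13 competing counts, too few in replicate 2 for the test.

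Triadin differed from these in having a middling share. Trdn, which anchors the calsequestrin of the calcium store to the release channel, skipped a 30-nt exon with 82 and 83 reads. Its shares were 40.2% (33.8% to 47.0%) and 37.8% (31.8% to 44.2%), with overlapping intervals.

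Skipping of longer exons was led by Idh3b, a subunit of mitochondrial isocitrate dehydrogenase. The intron chr2:130279438-130280262 ran over a 171-nt exon with 523 and 500 reads, at shares of 92.6% (90.2% to 94.5%) and 95.2% (93.1% to 96.7%). Dctn1, the largest dynactin subunit, skipped 2 exons of 39 nt in sum at 42.9% and 53.0%. Clip1, a microtubule plus-end protein, skipped 105 nt at 50.4% (41.4% to 59.5%) and 41.8% (29.7% to 54.97%). Lmo7, an actin-associated LIM protein, skipped 57 nt at 81.0% and 74.2%.

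Skipping was also found in the following 4 genes. Ttn, titin, skipped a 303-nt exon with 56 and 19 reads, at 21.4% (17.2% to 26.3%) and 16.7% (11.6% to 23.4%). Pdlim3, a Z-disc PDZ-LIM protein, skipped 264 nt at 4.28% and 6.34%, and Nrap, a nebulin-related anchoring protein, skipped 105 nt in 7.10% and 6.20%. Dnm1l, the mitochondrial fission GTPase, skipped 33 nt in 36 of 79 and 17 of 71 competing counts. The shares were 45.6% (35.05% to 56.5%) and 23.9% (15.5% to 35.04%), whose intervals did not overlap, and the difference did not pass the test (Fisher's exact, adjusted p = 1).

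Of the 437 exon-skipping introns 318 ran over 1 Known exon, 77 over 2, 26 over 3 and 16 over 4 or more. The median skipped length was 121 nt. In coding sequence, 197 of 316 skipped lengths (62.3%, 56.9% to 67.5%) were multiples of 3. Among 69478 Known internal exons between coding exons the share was 39.5%.

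New internal exons numbered 260 in 210 genes, from 2 to 753 nt long with a median of 87.5 nt, against a median of 119 nt over 73298 Known internal exons with reads. Inclusion, the share of reads spanning the site that contain the exon, could be given for 148 with 20 or more spanning reads in each library. It had a median of 5.93%, was under 5% in 68 and was 50% or more in 14. The 2 introns beside a new exon share most of their reads and are not independent.

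Bin1, which shapes the transverse tubules of muscle, had the exon with most reads. Of 1360 reads across the site in replicate 1, 1311 contained the 45-nt exon, and of 901 in replicate 2, 856 did, an inclusion of 96.4% (95.3% to 97.3%) and 95.0% (93.4% to 96.2%). Almost all Bin1 reads across the site thus held, in both libraries, an exon that the annotation files did not list. Mybpc1, slow myosin-binding protein C, had a pair of neighbouring new exons of 39 nt and 36 nt. The 39-nt exon was in 75.8% (73.6% to 77.8%) and 69.9% (67.2% to 72.6%) of spanning reads and the 36-nt exon in 75.3% and 69.99%. The intervals of the libraries did not overlap, and none of the 3 Mybpc1 introns with most reads passed the test (Fisher's exact, adjusted p = 1). The intron between the 2 exons, with 1210 and 787 reads, had a share of 99.35% and 99.9%. Both its ends were new, so no Known intron could compete.

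Signalling genes followed. Ywhae, 14-3-3 epsilon, which binds phosphorylated proteins, had a 45-nt exon in 58.5% (54.7% to 62.1%) and 62.4% (58.8% to 65.9%) of spanning reads. Pde4dip, myomegalin, a scaffold of the centrosome and Golgi, had a 61-nt exon in 62.3% and 61.95%. Phkb, the regulatory beta subunit of phosphorylase kinase, which switches on glycogen breakdown, had a 91-nt exon in 90.6% (84.7% to 94.5%) and 93.7% (87.6% to 96.9%). Fermt2, kindlin-2, an activator of integrins, had a 21-nt exon in 37.8% and 39.2%. In all 4 genes the intervals of the libraries overlapped.

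Usp25, a deubiquitinating enzyme, had new exons of 114 nt and 96 nt, at 90.2% and 85.2% and at 89.1% and 85.2% of spanning reads. Pxn, the focal adhesion protein paxillin, had new exons of 267 nt and 393 nt, at 54.9% and 45.3% and at 47.6% and 36.9%. Lrrfip2, a protein of Wnt and Toll-like receptor signalling, had new exons of 54 nt and 57 nt, at 92.4% (83.5% to 96.7%) and 76.3% (60.8% to 87.0%) and at 92.4% and 73.7%, with 66 and 38 spanning reads. Tmem65, a mitochondrial membrane protein, had an 81-nt exon at 53.7% and 61.5%. Ppp3cb, a catalytic subunit of calcineurin, had a 27-nt exon at 41.7% and 52.8%, with 36 spanning reads in each library. Rbfox1, a splicing regulator of muscle and nerve, had a 53-nt exon in 20 of 24 and 11 of 15 spanning reads.

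In 3 abundant genes the new exons were rare. Atp2a1 had a 302-nt exon at 0.348% and 0.317%, Ckm, muscle creatine kinase, a 125-nt exon at 0.0433% and 0.0305%, and Pkm, pyruvate kinase, a 123-nt exon at 0.728% in each library. The order by reads thus differed from the order by inclusion.

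**Figure D3:**
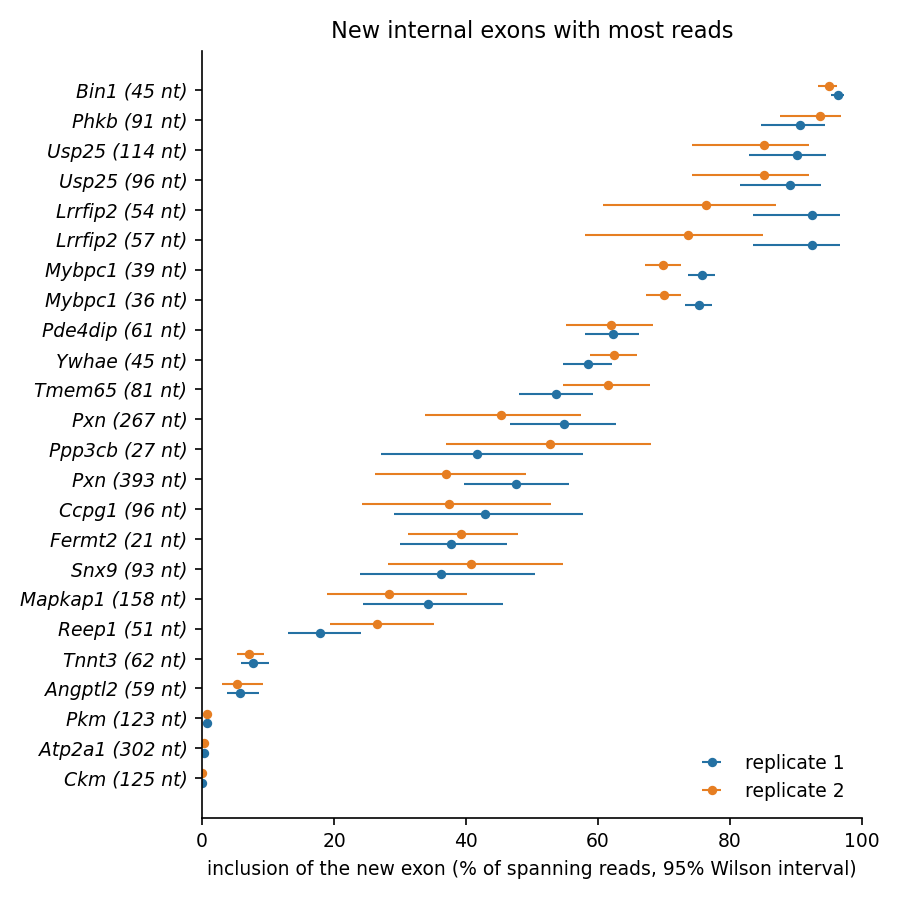
Inclusion of the 24 new internal exons with most reads and 20 or more spanning reads in each library (x, percent of spanning reads), with points for the 2 libraries and 95% Wilson intervals. Inclusion runs from about 96% in Bin1 to under 1% in Pkm, Atp2a1 and Ckm, and the pair of Lrrfip2 exons shows the widest gap between the libraries.

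Between coding exons 75 of 133 new internal exons (56.4%, 47.9% to 64.5%) were multiples of 3, above the 39.5% (39.1% to 39.8%) of Known internal exons. Elsewhere the share was 56 of 127 (44.1%, 35.8% to 52.8%). Among those with inclusion of 10% or more it was 15 of 25, and among those under 10% it was 25 of 61, with overlapping intervals (40.7% to 76.6% and 29.5% to 53.5%). New donors in coding exons lay a multiple of 3 from the nearest Known donor in 47 of 88 cases (53.4%, 43.1% to 63.5%) and new acceptors in 67 of 119 (56.3%, 47.3% to 64.9%).

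**Figure D4:**
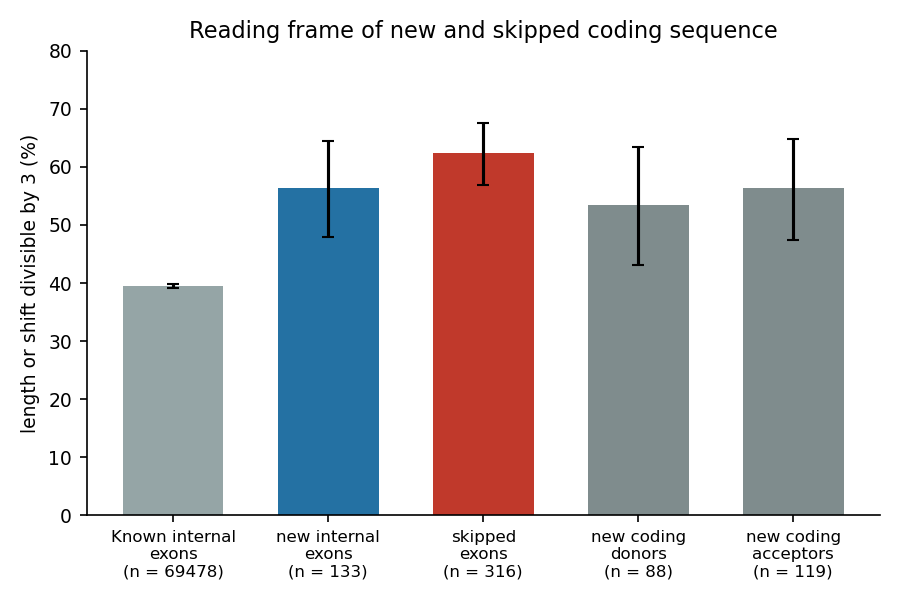
Share of exon lengths or splice-site shifts divisible by 3 (y, percent, bars from 0, error bars 95% Wilson intervals) for Known internal exons, new internal exons, skipped exons, new coding donors and new coding acceptors. The 4 kinds of new or skipped sequence lie between 53% and 63%, and Known exons at 39.5%.

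New first exons were led by Myh4, the heavy chain of the fastest (IIb) fibres. Its intron chr11:67237834-67238030, with the donor printed above, had 9652 and 1721 reads and shares of 98.8% and 98.2% (9699 of 9817 and 1727 of 1758 competing counts over all classes). The donor lay outside annotated genes and the acceptor in a 5′ UTR. All Myh4 models together had 23388 and 8871 CPM, so the gene itself had fewer reads in replicate 2. The share was alike, but both ends were new, so it leaves out reads spliced by Known introns alone. Of all Myh4 reads the intron held 36.0% and 20.6% by the rule, a lower part in replicate 2. Slc41a3, a magnesium transporter, joined a new first exon in 91 of 107 and 65 of 77 competing counts, and Sbk1, a kinase, in 85 of 106 and 52 of 61. Lbx1, a transcription factor of limb muscle precursors, did so in 35 of 36 and 21 of 21. Both ends of the Lbx1 intron were new, and it held 50.7% and 53.8% of all Lbx1 reads by the rule.

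In Ak1 and Myl1, where the acceptor was Known, the new first exon was minor. Ak1, adenylate kinase, had 123 and 85 reads on one, at shares of 2.31% and 1.57%. Myl1, the fast light chain gene with separate starts for its 2 products, had 104 and 103 reads, at 1.62% and 1.40%. Changes at the 5′ end were frequent among new donors too. For 201 of 427 new donors (47.1%, 42.4% to 51.8%) most reads came from models in which the intron was the first, against 25.8% of new acceptors and 10.9% of Known introns.

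Other new ends fell outside that set. Mknk2, a kinase of translation initiation, moved a 5′ UTR donor by 42 nt with 285 and 198 reads, at 71.9% (67.3% to 76.1%) and 67.5% (61.9% to 72.6%). Tnnt3, fast skeletal troponin T, whose 5′ exons are spliced in many combinations, had an intron of 8894 nt over 10 annotated exons, at 55.2% and 54.5%. Qk, the splicing regulator quaking, had a new acceptor 24 nt from a Known one with shares of 59.1% (51.8% to 66.0%) and 60.5% (52.7% to 67.8%). Meg3, a maternally expressed noncoding RNA, had a new acceptor and a new donor around an exonic stretch, with donor shares of 65.4% and 71.6%. In each of these 4 the intervals of the libraries overlapped.

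Longer stretches of exon lay inside some of the new-end introns. Cct6a, a subunit of the chaperonin that folds actin and tubulin, had an intron of 50376 nt over 2 annotated exons, with both ends new, 268 and 200 reads, and 99.6% and 100% of competing counts. Pdlim5, a Z-disc PDZ-LIM protein, had a donor 28 nt past an annotated one and ran over 5 exons at 99.2% (97.2% to 99.8%) and 95.2% (91.7% to 97.3%). Dus1l, a tRNA dihydrouridine synthase, had an 86-nt intron with an acceptor 3 nt from an annotated one, with 75 of 76 and 65 of 65 competing counts over all classes. In Pdlim5 and Dus1l too, nearly all competing counts were on the unannotated intron. For Cct6a no Known intron could compete, and its intron held 87.9% and 85.1% of all Cct6a reads by the rule.

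The members with most reads in some of the gene lists follow. Col1a2, a chain of type I collagen, ran over 2 exons of 26 nt in sum with the exon before lengthened by 4 nt, with 50 of 68 and 36 of 43 competing counts and 4.19% and 4.14% of all reads of the gene. Rps24, a ribosomal protein, ran over a 20-nt exon with a lengthening of 18 nt, at 84.1% and 83.1%. Pabpc4, a poly(A)-binding protein, had a donor inside a coding exon with 20 of 111 and 10 of 80. Among oxidative phosphorylation genes the leading member was a 5′ UTR donor of Atp5j, an ATP synthase subunit, with 16 and 13 reads at 21.6% (13.8% to 32.3%) and 23.6% (14.4% to 36.3%).

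The myogenic and membrane lists gave the next 5 genes. Mef2d, a transcription factor of muscle genes, had a new donor with 28 of 84 and 19 of 56 competing counts. Mymk, myomaker, which fuses myoblasts, had one at 7.69% and 7.32%. Chrne, the adult subunit of the acetylcholine receptor, skipped a 156-nt exon at 23.8% and 18.8%. Intervals overlapped between the libraries in all 3. Tln2, a talin that links integrins to actin, joined a new first exon over an intron of 74187 nt with 34 and 4 reads. Nexn, an actin-binding Z-disc protein, did so in 16 of 333 and 33 of 294 competing counts, with intervals of 2.98% to 7.66% and 8.105% to 15.3% that did not overlap, and this difference did not pass the test (Fisher's exact, adjusted p = 1).

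Inside single annotated exons lay 213 members, in 173 genes, with a median length of 367 nt and 4937 reads. Both ends were in 3′ UTR in 61, in coding sequence in 27, in 5′ UTR in 18 and in noncoding exons in 64. Such an intron removes the inside of an exon that at least 1 annotated model keeps whole. Other annotated models may splice there, as in Hnrnpk and Rps24, whose introns over short exons also count here. Reads that keep the exon whole hold no competing intron, so the share leaves them out. For the single-exon introns described next, the part of all reads of the gene is given beside it. In coding sequence 18 of 27 had a length that is a multiple of 3. Only 15 members in all were under 70 nt, and 14 of these were inside 1 exon.

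Both dinucleotides could be read in 362 members. They were GT-AG in 331 (91.4%, 88.1% to 93.9%), GC-AG in 20 (5.52%), GT-AT in 9 and AT-AC in 1. Of 10051 readable Known introns 9900 (98.5%) were GT-AG and 118 (1.17%) GC-AG, and 1 was GT-AT. Of readable new donors 389 of 420 read GT, and of readable new acceptors 420 of 434 read AG. Readable members are mostly those with ends in annotated exons, so these shares do not describe all 2200.

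Members inside 1 exon often had the same bases at both ends. The windows compared held 10 bases on each side of each end. A run of 8 or more bases common to both windows was present in 31 of 211 such members (14.7%, 10.5% to 20.1%), in 1 of 138 other readable members and in 47 of 9793 Known introns (0.480%, 0.361% to 0.638%). A run of 10 or more was present in 12.3% of members inside 1 exon and in 0.0511% of Known introns. By place, the run of 8 or more was found in 8 of 27 with both ends coding and in 20 of 61 with both ends in a 3′ UTR. Among members inside 1 exon with 20 or more reads it was found in 11 of 36.

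The printed sequences show it. Synpo2, a Z-disc protein of muscle, had a 69-nt intron in its 3′ UTR with GT-AT ends, a shared run of 17 bases, and shares of 100% and 99.2%. Its reads by the rule were 24.6% and 24.5% of all Synpo2 reads, and over all classes it had 164 of 357 and 130 of 278. Casq1, the fast-fibre calsequestrin, which binds calcium in the store, had a 181-nt intron from 5′ UTR into coding sequence with a shared run of 10 bases. Its reads were 282 and 225 and its shares 94.9% (91.8% to 96.9%) and 94.1% (90.4% to 96.5%), but it held 2.81% and 2.94% of all Casq1 reads. Trub2, a pseudouridine synthase, had 17 and 18 reads, which were 45.9% and 41.9% of all Trub2 reads, and a shared run of 19 bases. In Casq1 and Trub2 the run is shifted by 1 base between the ends, and the dinucleotides read GT-AG.

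Not every such intron had a shared run of 8 or more bases in the windows compared. Cdkn1c, an imprinted inhibitor of the cell cycle, had a 59-nt intron inside its coding exon with GT-AG ends. It had 103 and 105 reads, which were 4.44% and 5.07% of all Cdkn1c reads. No other intron used its ends, so its share is 100% by definition. No shared run of 8 bases was found there. Gpd2, the mitochondrial glycerol-3-phosphate dehydrogenase, had an intron of 1989 nt from coding sequence into 3′ UTR with the GT-AG ends printed above. It held 102 of 120 and 69 of 85 competing counts, and 49.7% and 61.3% of all Gpd2 reads by the rule. How the shared runs came about was not tested.

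**Figure D5:**
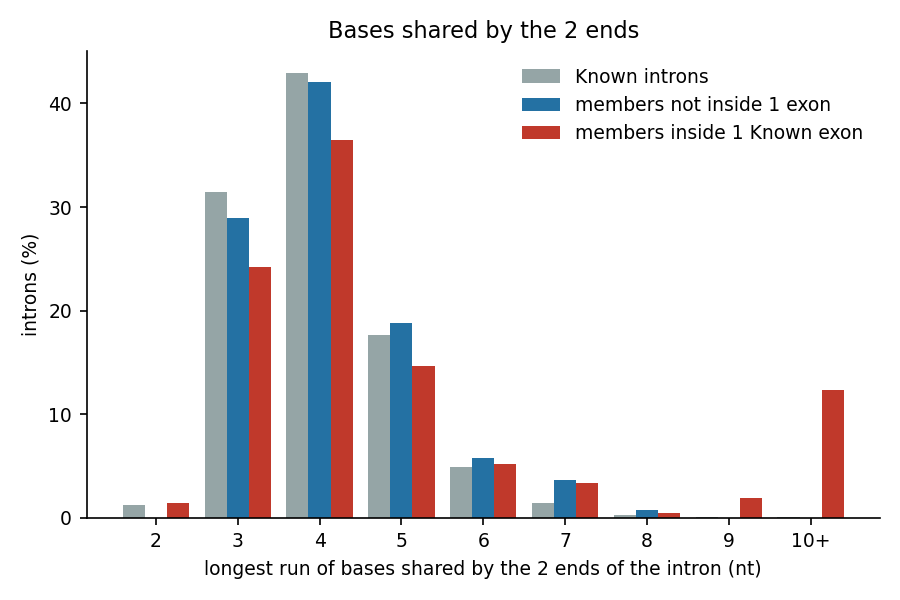
Longest run of bases common to the windows at the 2 ends of an intron (x, nt) and the share of introns with it (y, percent, bars from 0), for Known introns, members inside 1 Known exon and the other readable members. A run of 4 is the most frequent in all 3 groups, and runs of 10 or more are found in 12.3% of members inside 1 exon.

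Introns that joined sites of 2 genes were few. Of the 19, 9 lay in the cluster of sarcomeric myosin heavy chains on chromosome 11, with 123 reads in sum and lengths from 27485 to 199634 nt. In all 9 an exon of one gene was joined to an exon of another gene of the same or the following rank, as in Myh1 exon 23 to Myh4 exon 23 with 24 and 10 reads. The highest mean share among them was 0.802%. These genes are near-identical in many exons, so the assignment of their reads is uncertain. The other 10 had at most 24 reads, as in Ndufa13 to Yjefn3, at 3.61% and 2.81%.

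Members were more frequent in genes with many reads. Of 7684 genes with 20 or more reads 1192 (15.5%) held a member, and of 183 genes with 1000 or more reads 109 (59.6%) did. Of the sarcomere list 40 of 57 genes (70.2%, 57.3% to 80.5%) held 165 members, at a median of 834 reads per gene. Of the glycolysis and glycogen list 18 of 29 genes (62.1%) did, at a median of 991 reads. Of the oxidative phosphorylation list, with a median of 1056.5 reads per gene, 12 of 48 (25.0%, 14.9% to 38.8%) did. Intron number per gene was not set against these counts.

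The other lists were lower or small. Calcium handling genes held a member in 12 of 32 genes with 20 reads, matrix genes in 11 of 33, membrane and costamere genes in 12 of 35, and splicing regulators in 11 of 49. Translation genes did in 6 of 35, imprinted and developmental genes in 6 of 13, myogenic genes in 7 of 18, and endothelial and mural genes in 3 of 17. The adipocyte list had 1 of 5, with 3 members in Car3, carbonic anhydrase 3, each under a share of 1%. Car3 had 2802 and 4009 reads, against 4 and 6 for the adipocyte marker Adipoq and 1 and 1 for Plin1. Which cells the Car3 reads came from was not tested. Schwann cell and nerve (9 genes), immune (7) and red cell (5) genes held none, and their medians were 73, 50 and 174 reads per gene.

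By gene, Atp2a1 had 41 members, Tnnt3 23, Myl1 16, Myh4 14 and Pde4dip 11, and Ckm and Gm29773 also had 11. Within Atp2a1 1 intron held 144421 of the 146712 member reads. In Tnnt3 several introns left 1 new donor for acceptors close to one another, with 250 and 267 reads on the first, 58 and 72 on the second and 55 and 73 on the third. Shares of these were 55.2% and 54.5%, 13.03% and 14.7%, and 12.4% and 15.1%. These 3 introns of Tnnt3 thus differed only in the acceptor.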

How the data were processed

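Long-read RNA-seq of 2 gastrocnemius libraries was used. The deposited counts are raw reads per transcript model, listed by the authors without normalization, and the deposited annotations give each model's exons and TALON class on mm10 with GENCODE M21, per the file headers and labels. Replicate 1 was processed under version 3.1 of the pipeline document and replicate 2 under 3.0, per the labels, so version and library cannot be told apart. The aligner was not given in the sources used here.

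Introns were taken from all models and reads summed per intron. Members needed 1 read in each library and 5 in sum, and lay over 12 nt from a Known intron with a shared end. Shares have 95% Wilson intervals. Shares were compared between libraries by Fisher's exact test in introns with 20 or more competing counts. On simulated data for that comparison over 47221 introns, 111 of 200 introns moved by 20 points were recovered, 51 of 51 of those with 200 or more counts, and 0 unchanged introns were called. The simulated counts were independent binomial draws from each intron's pooled share. They held no spread between libraries beyond counting error, so they do not give the rate of false calls in the real libraries. Bases came from 141767 GENCODE M21 transcripts and RefSeq promoter windows, with 0 conflicting bases, since no genome sequence was used here. Named introns were the 10 with most reads per class, the 10 of highest share, up to 3 per gene list, and the 5 genes with most members. No member was called between the libraries, so that part of the rule named none. Introns over short exons, single-exon introns and other exons were named after their values were seen. The members and lists were chosen with earlier results of these data known. Python 3.11.15, NumPy 2.4.6, SciPy 1.17.1 and pandas 2.3.3 were used. Intervals cover counting error only. The result for 1 gene is not reported here.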

Additional observations from a re-analysis of the deposited data

How the results depend on the processing

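Of 82 alternative values 49 stayed within 1.5 times the reported count or within its spread and 33 moved. With 10 reads or more in sum, 914 introns were left (190 skipping, 340 new exon, 384 new end), and with 20 or more, 405 (79, 150 and 176). Keeping the introns near a Known one gave 1649 new ends. Without replicate 1 the numbers were 911 in all, 180 skipping, 347 new exon and 384 new end, and without replicate 2 they were 1238, 274, 455 and 509, since fewer reads then had to reach 5. The level of 10.4 reads per 1000 intron-spanning counts became 107 per 1000 spliced reads and 3.22 without Atp2a1, and was 10.0 and 10.8 without either replicate. Introns called between libraries numbered 14 at 5 points, 16 at any size and 590 with the gene's reads as denominator, against 7, and members 2 at any size and 2 with the gene's reads, against 0. Members with a mean share of 50% or more numbered 162 with 10 competing counts and 54 with 50, against 99. New internal exons of a multiple of 3 were 75% among introns of 20 reads or more and 77.2% when weighted by reads, with a weighted median length of 45 nt. For skipped exons these were 70.4% and 51.7%. The limit for short exons and its values without a replicate were chosen after seeing the data: a limit of 20 nt gave 57 introns, without replicate 1 there were 61 and without replicate 2 there were 86, against 108. Apart from the counts without a replicate, the causes were not tested.

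No paired analysis was possible because both libraries belong to 1 group. Most members have few reads, and shares were compared in 1458 of the 2200, where low counts limit the test to large differences. Parental alleles were not separated and splice-site bases were read in a minority of members.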
